A study of Arabidopsis thaliana with 6 samples.

Results

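The Aux/IAA, GH3 and ARF families form the core of nuclear auxin signalling and of its feedback. The 43 genes described here were taken from the deposited expression table by their TAIR gene identifiers, out of 32319 genes listed there, and all 43 were found. They are 24 Aux/IAA genes, 7 GH3 genes and 12 ARF genes. Expression was measured by RNA-seq in whole seedlings of Arabidopsis thaliana (wild type, Col-0), labelled as 4 days old, in 2 groups of 3 libraries. One group spent 1 h in liquid MS medium with sucrose and NAE 18:3 at 100 µM. NAE 18:3, N-linolenoylethanolamine, is the ethanolamide of linolenic acid. The other group spent 1 h in the same medium with 0.07% DMSO. One protocol field puts the transfer at day 3 instead. The labels state no DMSO content for the NAE 18:3 medium and no date, plate or lane, so treatment, solvent and any batch not recorded there cannot be told apart.

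Auxin acts by bringing Aux/IAA proteins to the F-box receptors TIR1 and AFB, which mark them for destruction. Until then an Aux/IAA protein sits on an ARF transcription factor and recruits TOPLESS co-repressors to the genes that the ARF binds. Many Aux/IAA and GH3 genes are themselves rapid auxin targets, and GH3 enzymes join auxin to amino acids, so both families feed back on the signal. ARFs bind short promoter elements, of which TGTCTC and the stronger site TGTCGG are the best known.

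To show what such promoters look like, the 250 bases before the annotated RNA start are printed for the 4 genes with a change of at least 1 on the log2(FPKM + 1) scale that hold one of these motifs, and for IAA2, which had the largest rise and holds neither. Sequences and positions are from the RefSeq TAIR10.1 assembly, each is written 5′ to 3′ on the gene's own strand, and capitals mark TGTCTC or TGTCGG on either strand. They lie at chr3:1290892-1291141 on the minus strand (IAA16), chr4:13653329-13653578 on the plus strand (GH3.5), chr4:17579368-17579617 on the plus strand (GH3.2), chr2:19307464-19307713 on the plus strand (IAA20) and chr3:8182096-8182345 on the minus strand (IAA2).
IAA16: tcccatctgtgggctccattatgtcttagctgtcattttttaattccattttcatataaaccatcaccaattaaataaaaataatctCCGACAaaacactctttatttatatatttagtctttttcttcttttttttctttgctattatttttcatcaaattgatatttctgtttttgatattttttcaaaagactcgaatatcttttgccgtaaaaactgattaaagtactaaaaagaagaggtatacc
GH3.5: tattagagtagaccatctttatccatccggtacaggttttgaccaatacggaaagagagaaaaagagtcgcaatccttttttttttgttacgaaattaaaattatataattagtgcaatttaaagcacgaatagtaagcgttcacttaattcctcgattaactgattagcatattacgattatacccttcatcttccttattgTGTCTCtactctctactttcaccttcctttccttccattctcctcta
GH3.2: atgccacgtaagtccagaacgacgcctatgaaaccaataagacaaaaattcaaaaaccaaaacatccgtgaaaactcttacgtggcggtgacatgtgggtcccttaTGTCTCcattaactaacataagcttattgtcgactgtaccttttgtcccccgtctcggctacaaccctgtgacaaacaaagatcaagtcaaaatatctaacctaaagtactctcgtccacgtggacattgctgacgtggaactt
IAA20: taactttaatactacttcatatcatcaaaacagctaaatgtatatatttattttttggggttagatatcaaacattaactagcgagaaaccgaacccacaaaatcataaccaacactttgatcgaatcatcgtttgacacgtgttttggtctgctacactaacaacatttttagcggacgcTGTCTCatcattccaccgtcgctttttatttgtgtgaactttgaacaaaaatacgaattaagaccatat
IAA2: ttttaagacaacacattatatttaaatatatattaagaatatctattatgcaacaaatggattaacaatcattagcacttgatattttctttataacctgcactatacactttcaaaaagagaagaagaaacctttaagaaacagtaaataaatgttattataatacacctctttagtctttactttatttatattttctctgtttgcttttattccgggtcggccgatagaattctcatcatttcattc
The motif starts 163 bases before the RNA start in IAA16, where it reads as the reverse complement of TGTCGG. The motif TGTCTC starts at 47 bases in GH3.5, at 144 bases in GH3.2 and at 69 bases in IAA20. The first 3 of these genes rose and IAA20 fell, so windows with a motif were found on both sides. IAA4, IAA7, IAA28, GH3.6 and GH3.17 also changed by at least 1 on the log2(FPKM + 1) scale and, like IAA2, hold neither motif. TGTCTC was in 5 of the 22 windows of members that rose and in 2 of the 10 of members that fell. For TGTCGG it was 3 of 22 and 2 of 10. Over all members, 7 of 24 Aux/IAA windows, 3 of 7 GH3 windows and 1 of 12 ARF windows hold TGTCTC, against 10.9% of 27444 protein-coding promoters of the same length. TGTCGG was found in 6 Aux/IAA windows, 0 GH3 windows and 2 ARF windows, against 4.16% of all promoters. A match is a description of the letters, and a missing match says nothing of the factor. IAA1, which fell, is the 1 member outside the untested genes whose window holds both TGTCTC and TGTCGG. The G-box CACGTG, a bHLH and bZIP element, was in the windows of 4 Aux/IAA genes (IAA7, IAA19, IAA20 and IAA30), of GH3.2 and of no ARF gene, against 6.49% of all promoters.

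Values are FPKM, fragments scaled to transcript length and to the mapped total of the library, as deposited by the authors. FPKM carries no total count, so absolute depth is unknown. The steps between low values gave DMSO replicate 1 a depth of 0.482 relative to NAE 18:3 replicate 1, and the other libraries 0.752 to 1.265. A locus was tested when its mean over the 6 libraries reached 1 FPKM, which 37 of the 43 members did. A change is the NAE 18:3 mean less the DMSO mean of log2(FPKM + 1), a scale that shrinks changes of low genes, and changes were tested with limma over all 18194 loci with Benjamini-Hochberg adjustment at 0.05. In that fit 83.2% of all loci were called, 44.1% higher and 39.2% lower after NAE 18:3, and the median change of all loci was 0.06. With each library scaled to one upper quartile, 32.2% were higher and 52.2% lower, and the median was -0.25. With quantile normalization 39.8% were higher and 42.6% lower, with a median of -0.03.

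Of the 37 tested members 22 rose (59.5%), 10 fell (27.0%) and 5 did not pass, against 44.1% of all loci that rose and 39.2% that fell. By at least 1 on the log2(FPKM + 1) scale 8 members rose and 2 fell, where 18.4% and 17.2% of all loci did so. By the ratio of mean FPKM, 11 members rose and 3 fell by at least 2-fold, against 20.6% and 20.7% of all loci. The families were unlike. All 5 tested GH3 genes rose, and their median log2 change was 1.40. Of 12 ARF genes 8 rose (66.7%) and 4 fell (33.3%). The ARF median was 0.42, and no ARF gene changed by as much as 2-fold. These ARF values count ARF3 by a locus that joins it with a neighbouring gene, and the median was 0.30 without joined loci. Among the 20 tested Aux/IAA genes there were 9 that rose (45.0%), 6 that fell (30.0%) and 5 below the threshold. The rising share of the Aux/IAA genes was thus near that of all loci. Their median was 0.13 and their range the widest, from -1.18 to 2.66. The groups did not overlap for 34 of the 37 members, against 84.6% of all loci. With upper-quartile scaling 18 members rose and 15 fell, and among the Aux/IAA genes 7 rose and 11 fell. The members are related genes measured in the same libraries, so these counts are a description and no test of one family against another was made.

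**Figure D1:**
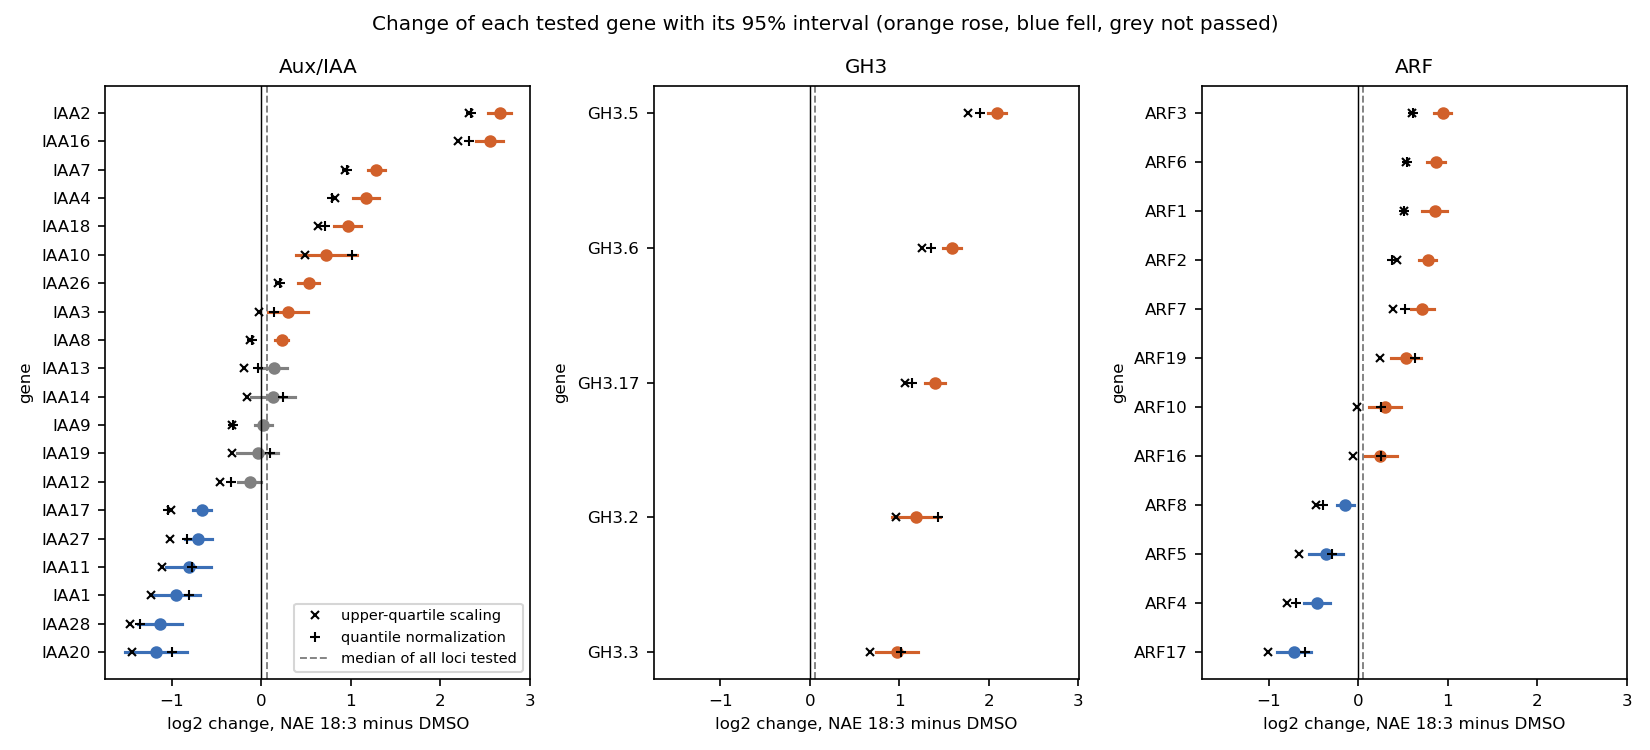
Log2 change on the log2(FPKM + 1) scale (horizontal axis) of each tested gene (vertical axis) in the 3 families, with points for the deposited scale, lines for the 95% interval, crosses and plus signs for 2 other scalings and a dashed line for the median of all loci. All 5 GH3 genes lie right of 0 with every scaling, whereas the Aux/IAA genes run from -1.18 to 2.66. The ARF3 row is the locus joined with AT2G33855.

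Among the Aux/IAA repressors, IAA2 and IAA16 had the largest rises. IAA2 (AT3G23030), a classic early auxin-induced gene, stood at 20.7, 18.5 and 17.8 FPKM in the DMSO libraries and at 128, 124.4 and 124.0 FPKM in the NAE 18:3 libraries. The NAE 18:3 libraries lay far above the DMSO libraries and close to each other. The mean rose 6.60-fold, by 2.66 ± 0.05 (SE) on the log2 scale (adjusted p = 5.7e-10 with limma), and 588 of the 18194 loci had a larger change. IAA16 (AT3G04730), known from a dominant mutant with reduced auxin response, was at 47.5, 52.7 and 58.2 FPKM in DMSO and at 323, 302 and 314 FPKM after NAE 18:3. Its 3 NAE 18:3 values were all above every DMSO value, and its mean rose 5.93-fold (log2 change 2.55, standard error 0.07, limma adjusted p = 2.4e-09).

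IAA7 (AT3G23050), the AXR2 gene whose stabilising mutation gives auxin-resistant, agravitropic plants, was at 68.2, 67.8 and 73.9 FPKM in DMSO and at 169.5, 168 and 177 FPKM after NAE 18:3. The groups were well apart and the mean rose 2.45-fold (log2 change 1.28, standard error 0.04, limma adjusted p = 8.9e-09). IAA4 (AT5G43700), another early auxin-induced gene, was at 27.2, 28.3 and 32.5 FPKM in DMSO and at 69.3, 67.3 and 64.6 FPKM after NAE 18:3. It rose 2.28-fold without overlap (log2 change 1.17, standard error 0.06, limma adjusted p = 2.8e-07). The other genes that rose were IAA18 (12.6 ± 1.04 to 25.6 ± 1.03 FPKM, mean ± SD, n = 3 each), IAA10 (1.42 ± 0.233 to 3.03 ± 0.752 FPKM), IAA26 (19.9 ± 0.826 to 29.1 ± 1.46 FPKM), IAA3 (10.8 ± 1.52 to 13.4 ± 0.817 FPKM) and IAA8 (96.2 ± 2.68 to 113 ± 1.07 FPKM). IAA18 is known for roles in embryo and root patterning. IAA3, the SHY2 gene, limits root meristem size. Its rise was small (log2 change 0.30), and it was at -0.03 with upper-quartile scaling. With quantile normalization IAA3 was at 0.14 and did not pass (limma adjusted p = 0.24). The call of IAA8 turned round: its change of 0.23 became a fall of -0.12 with upper-quartile scaling and of -0.10 with quantile normalization (limma adjusted p = 0.0077 and 0.015).

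The 2 Aux/IAA genes that fell by at least 1 on the log2(FPKM + 1) scale were IAA20 and IAA28. By the ratio of mean FPKM, IAA1 also fell by over 2-fold, 2.33-fold. IAA20 (AT2G46990), which encodes an Aux/IAA protein without the degron that the receptors recognise, was at 6.82, 5.29 and 4.83 FPKM in DMSO and at 1.69, 1.60 and 2.52 FPKM after NAE 18:3. The groups did not overlap, and the fitted difference on the log2 scale was -1.18 ± 0.15 (SE; adjusted p = 8.6e-05 with limma). IAA28 (AT5G25890), known from a mutant with few lateral roots, was at 22.1, 24.3 and 23.2 FPKM in DMSO and at 12.0, 8.47 and 9.84 FPKM after NAE 18:3. Each NAE 18:3 value was below every DMSO value (log2 change -1.13, standard error 0.11, limma adjusted p = 1.0e-05). The other genes that fell were IAA1 (5.94 ± 1.07 to 2.56 ± 0.269 FPKM), IAA11 (8.01 ± 0.116 to 4.18 ± 0.767 FPKM), IAA27 (13.5 ± 0.59 to 7.90 ± 0.576 FPKM) and IAA17 (55.5 ± 2.41 to 34.6 ± 1.09 FPKM, the AXR3 gene of a strong dominant auxin-response mutant). These 6 genes also fell with both other scalings.

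Of the 5 Aux/IAA genes that did not pass, IAA9 is among the most abundant, with 118 ± 2.65 FPKM in DMSO against 120.2 ± 5.44 FPKM after NAE 18:3. Its log2 change of 0.02 had a 95% interval from -0.07 to 0.11, and it was called lower under the upper-quartile (-0.33) and the quantile (-0.31) scaling. IAA19, the MSG2 gene of hypocotyl tropism, was at 4.36 ± 0.71 and 4.17 ± 0.0596 FPKM, with an interval from -0.28 to 0.19, but with upper-quartile scaling it was called lower (-0.33, limma adjusted p = 0.016). IAA14, the SLR gene of lateral root initiation, had an interval from -0.12 to 0.38. IAA12, the BDL gene of the embryonic root, and IAA13 had intervals from -0.26 to -0.0023 and from -0.01 to 0.29. The groups did not overlap for IAA12 and IAA13, although both genes missed the adjusted threshold (limma adjusted p = 0.056 and 0.076). IAA12 was called lower under the upper-quartile (-0.46, limma adjusted p = 4.7e-05) and the quantile scaling (-0.34, limma adjusted p = 0.00041). IAA13 was called lower with upper-quartile scaling (-0.19, limma adjusted p = 0.021).

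**Figure D2:**
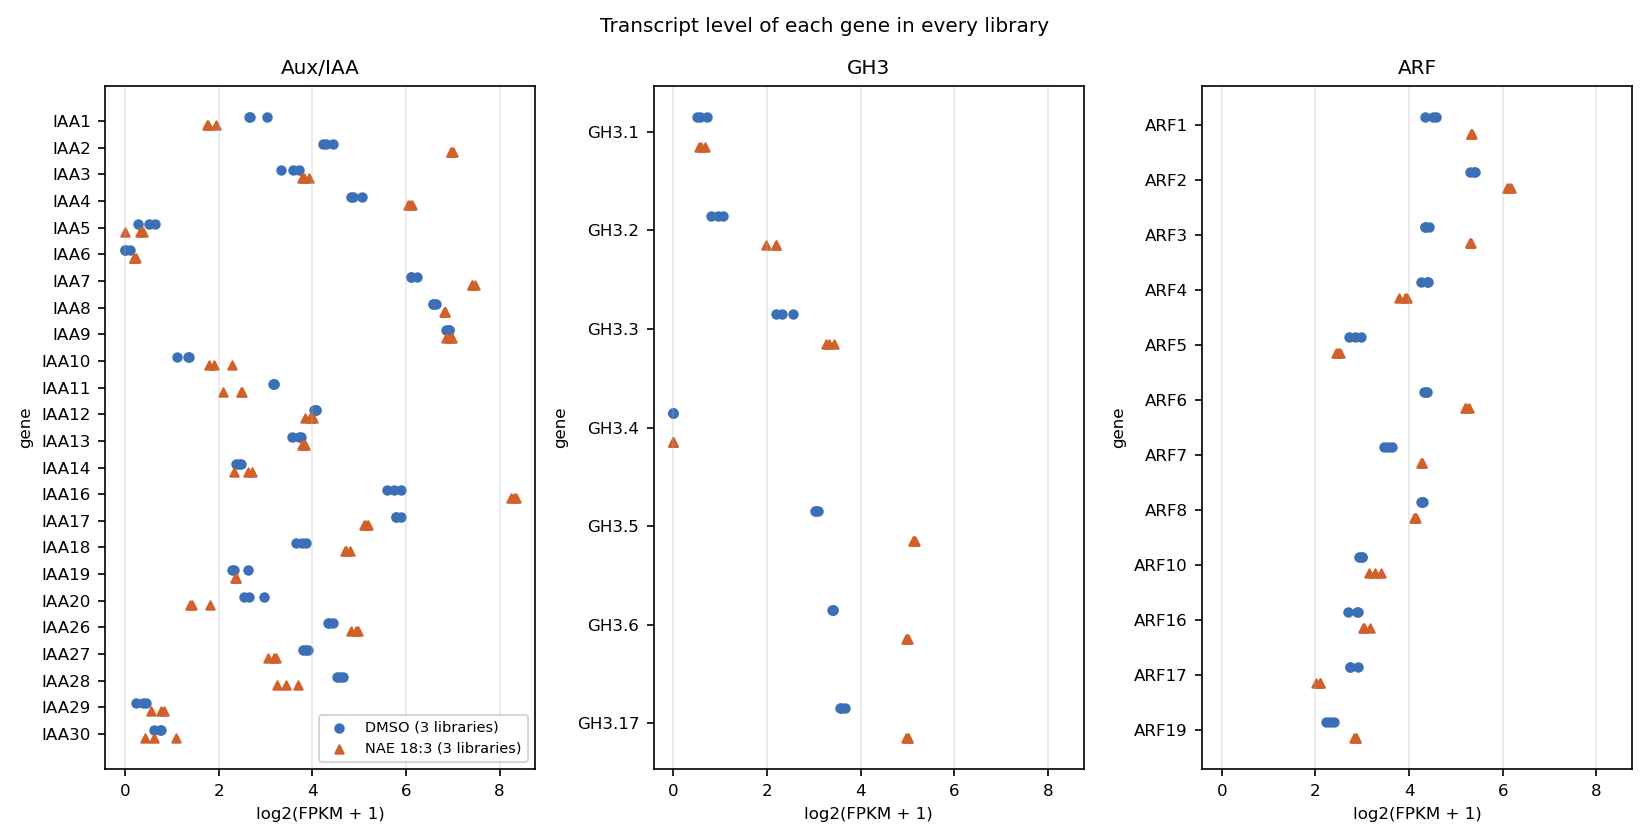
Log2(FPKM + 1) (horizontal axis) of all 43 genes (vertical axis) in every library, with circles for the 3 DMSO libraries and triangles for the 3 NAE 18:3 libraries; the ARF3 row is the locus joined with AT2G33855. IAA16 moves from below to above IAA9, while GH3.4 is listed at 0 in all 6 libraries.

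These changes altered which Aux/IAA transcripts dominated. The summed level of the 24 genes was 567.5 to 598 FPKM in the DMSO libraries and 1054 to 1095 FPKM in the NAE 18:3 libraries. In DMSO the order by level began with IAA9, IAA8 and IAA7, with IAA17 and IAA16 next and overlapping each other. After NAE 18:3 it began with IAA16 and IAA7, then IAA2 and IAA9, whose values overlapped, and IAA8. IAA16 went from 9.09% ± 0.681 to 29.0% ± 0.533 of the summed level (SD, n = 3 each), and IAA2 from 3.28% ± 0.339 to 11.6% ± 0.243. IAA9 went the other way, from 20.4% ± 0.443 to 11.1% ± 0.296, although its own level hardly differed on the deposited scale. IAA17 went from 9.57% ± 0.161 to 3.202% ± 0.0495. These shares compare genes within a library, so a common scaling factor does not change them.

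**Figure D3:**
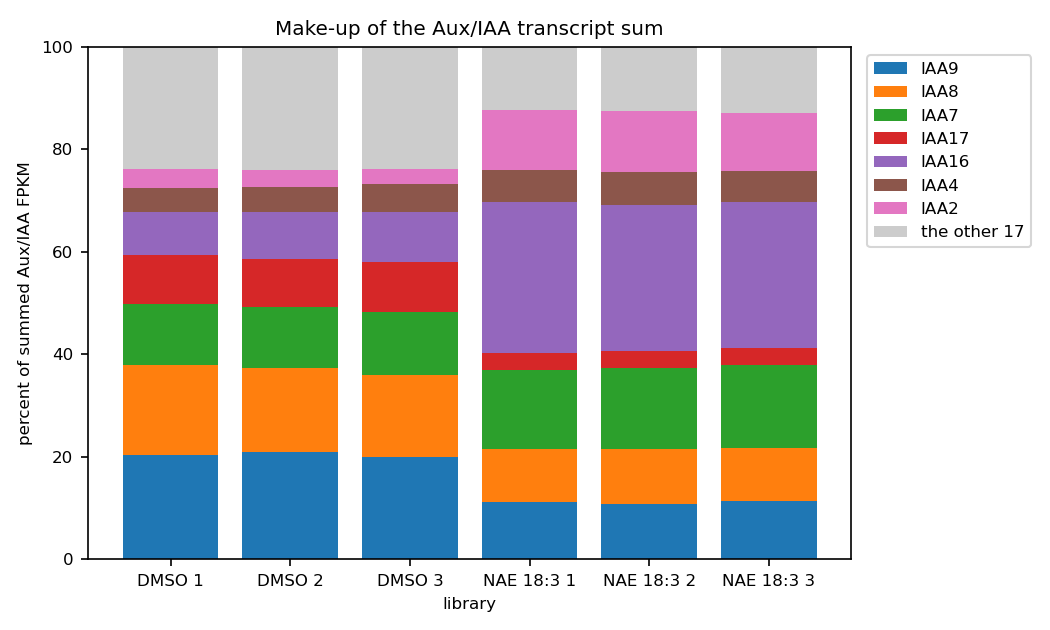
Percent of the summed Aux/IAA FPKM (vertical axis) held by 7 genes and by the other 17 together in each of the 6 libraries (horizontal axis). IAA16 grows from 9.09% to 29.0% on average while IAA9 shrinks from 20.4% to 11.1%.

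Several Aux/IAA genes are neighbours on the chromosome, transcribed away from each other with no annotated protein-coding gene between them in TAIR10.1. IAA2 and IAA7 on chromosome 3 lie 12510 bases apart, and both rose. IAA3 and IAA17 on chromosome 1 lie 6388 bases apart, and IAA3 rose while IAA17 fell. IAA14 and IAA1 on chromosome 4 lie 10732 bases apart, and IAA14 did not pass while IAA1 fell. Neighbours therefore had the same call in 1 of 3 pairs in this fit, and the call of IAA3 did not hold with either other scaling.

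The GH3 enzymes gave the most uniform picture. GH3.5 (AT4G27260), also named WES1, which conjugates auxin and can act on salicylic acid, was at 7.45, 7.15 and 7.25 FPKM in DMSO and at 33.8, 34.9 and 34.2 FPKM after NAE 18:3. Replicates were close to each other and the groups far apart, a 4.71-fold rise (log2 change 2.09, standard error 0.04, limma adjusted p = 7.5e-10). GH3.6 (AT5G54510), the DFL1 gene of a dwarf light-dependent mutant, was at 9.59, 9.59 and 9.52 FPKM in DMSO and at 31.1, 30.9 and 30.4 FPKM after NAE 18:3. It rose 3.22-fold without overlap (log2 change 1.59, standard error 0.04, limma adjusted p = 2.6e-09). GH3.17 (AT1G28130), which prefers glutamate as the amino acid to join to auxin, was at 11.6, 11.02 and 10.8 FPKM in DMSO and at 30.5, 31.4 and 31.2 FPKM after NAE 18:3. Its rise of 2.79-fold was again far outside the spread of replicates (log2 change 1.40, standard error 0.05, limma adjusted p = 1.0e-08). GH3.2 (AT4G37390) was lower in level, at 0.944, 1.08 and 0.739 FPKM in the DMSO libraries and at 3.58, 2.94 and 3.59 FPKM after NAE 18:3. Every treated library was above every control library (1.19 ± 0.12 SE on the log2 scale, adjusted p = 1.5e-05 with limma). GH3.3 (AT2G23170), a highly auxin-inducible member, rose 2.19-fold, from 4.15 ± 0.686 to 9.09 ± 0.589 FPKM. On the log2(FPKM + 1) scale its change was 0.98, just under 1. These 5 GH3 genes rose under both other scalings and in each fit without 1 library.

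The summed GH3 level was 33.2 to 33.8 FPKM in DMSO and 108.5 to 109.5 FPKM after NAE 18:3, 3.25-fold higher in mean. The corresponding ratio of means was 1.86 for the summed Aux/IAA level and 1.47 for the summed ARF level. The ARF sum includes the locus that joins ARF3 with AT2G33855. The sum over all loci was higher too, at 688025 to 866221 FPKM in the DMSO libraries and 991483 to 1140300 FPKM in the NAE 18:3 libraries. GH3.17, GH3.6 and GH3.5 held the first 3 places in DMSO without overlapping each other, and GH3.5 was first after NAE 18:3. GH3.1 was below the filter, with 0.507 ± 0.118 FPKM in DMSO against 0.521 ± 0.0621 FPKM after NAE 18:3, and GH3.4 was listed at 0 in all 6 libraries. Members of this family are similar in sequence, and how the authors shared reads between copies is not stated.

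The ARF genes had no change as large as the top rises of the other families, with log2 changes from -0.72 to 0.94. The 0.94 belongs to the locus that joins ARF3 with a neighbouring gene, described below, and the next largest rise was 0.87 for ARF6. ARF6, ARF7 and ARF19, activators that carry a glutamine-rich middle region, rose from 19.4 ± 0.459 to 36.4 ± 1.15 FPKM, from 10.7 ± 0.662 to 18.2 ± 0.204 FPKM and from 3.97 ± 0.276 to 6.18 ± 0.133 FPKM. ARF7, the NPH4 gene of phototropism, and ARF19 act together in lateral root formation. The other activators fell. ARF5, the MONOPTEROS gene of embryo and vascular patterning, went from 6.19 ± 0.595 to 4.58 ± 0.19 FPKM, which is -0.36 ± 0.08 (SE) on the log2 scale (adjusted p = 0.0029 with limma). ARF8, the closest relative of ARF6 and with it a regulator of flower maturation, went from 18.3 ± 0.18 to 16.5 ± 0.206 FPKM, which is -0.14 ± 0.04 (SE) on the log2 scale (adjusted p = 0.012 with limma). The activators as a set therefore held 3 genes that rose and 2 that fell.

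Among the ARFs usually counted as repressors, ARF1 rose from 21.3 ± 1.86 to 39.2 ± 0.515 FPKM and ARF2, a regulator of organ size and senescence, from 40.1 ± 1.49 to 69.4 ± 1.96 FPKM. ARF2 was the most abundant ARF in both groups. ARF4 fell from 19.4 ± 1.19 to 13.8 ± 0.878 FPKM. Of the ARFs that miR160 targets, ARF10 rose slightly, from 6.85 ± 0.229 to 8.66 ± 0.861 FPKM, and so did ARF16, from 6.12 ± 0.579 to 7.44 ± 0.448 FPKM. Their log2 changes of 0.30 and 0.25 were -0.02 and -0.06 with upper-quartile scaling. ARF17 fell from 5.92 ± 0.489 to 3.19 ± 0.161 FPKM, which is -0.72 ± 0.08 (SE) on the log2 scale (adjusted p = 3.9e-05 with limma), and fell with both other scalings.

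ARF3 (AT2G33860), the ETTIN gene of organ polarity, needs separate treatment. Its locus joins it with the neighbouring gene AT2G33855, whose product is annotated as an unknown protein, and the locus value of 19.6 ± 0.717 FPKM in DMSO and 38.6 ± 0.26 FPKM after NAE 18:3 covers both. The transcript assigned to ARF3 was at 11.2, 10.45 and 11.1 FPKM in the DMSO libraries and at 11.1, 11.7 and 11.4 FPKM in the NAE 18:3 libraries. These values overlapped (exact two-sided permutation test over the 6 libraries, p = 0.3, where the smallest possible is 0.1). The transcript assigned to AT2G33855 was at 7.92, 8.82 and 9.28 FPKM in DMSO and at 27.8, 26.8 and 27.1 FPKM after NAE 18:3. The difference between the groups at this locus was thus in the line of AT2G33855, and without joined loci 7 of 11 ARF genes rose and 4 fell.

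**Figure D4:**
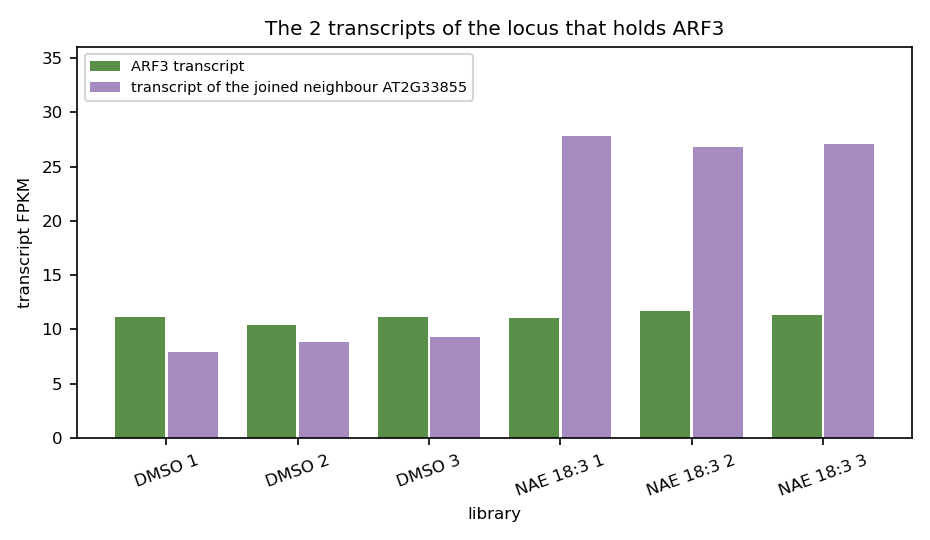
Transcript FPKM (vertical axis) of the ARF3 transcript and of the AT2G33855 transcript in each of the 6 libraries (horizontal axis). The ARF3 bars stay between 10.45 and 11.7 FPKM, while those of AT2G33855 go from 7.92 to 9.28 FPKM in DMSO to 26.8 to 27.8 FPKM after NAE 18:3.

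Transcript lines were also compared within the 21 other member loci that have several. A line is 1 assembled transcript, and several lines can carry the same TAIR transcript name. The leading line was the same in both groups at 19 of the 21 loci. Transcript values at this level are estimates that can swing between replicates, and 3 libraries against 3 cannot give an exact p below 0.1, so the shares are given as values. At GH3.17 the leading of 2 lines named AT1G28130.1 held 49.2% ± 28.5 of the locus in DMSO and 89.5% ± 8.37 after NAE 18:3. Both lines together held 40.9% to 74.9% in the DMSO libraries and 87.1% to 100.0% in the NAE 18:3 libraries. The level of the leading line went from 1.93, 6.73 and 7.51 FPKM to 27.4, 30.7 and 25.3 FPKM. At ARF6 the leading line in DMSO, 1 of 2 named AT1G30330.2, held 47.5% ± 2.7 there and 15.7% ± 9.62 after NAE 18:3, although its FPKM values overlapped. The other line of that name was at 11.2% ± 12.6 and 29.2% ± 12.6, and both together at 58.7% ± 11.5 and 44.8% ± 4.17, with overlapping groups. At ARF1 the line AT1G59750.3 was at 66.8% ± 7.08 and 48.1% ± 5.08. Its level was nevertheless higher after NAE 18:3, at 18.9 ± 2.08 FPKM against 14.3 ± 2.52 FPKM in DMSO, without overlap. At ARF8 the line AT5G37020.1 was at 64.3% ± 0.228 and 55.7% ± 3.63. GH3.2, the other locus with a change of leader, has 2 lines of the same name, AT4G37390.1.

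The 6 members under the filter were low in both groups. IAA29, a gene that light and warmth regulate, was at 0.288 ± 0.095 and 0.65 ± 0.162 FPKM, and IAA30 at 0.645 ± 0.098 and 0.672 ± 0.407 FPKM. IAA5 was at 0.405 ± 0.174 and 0.189 ± 0.167 FPKM. IAA6 was at 0 in 2 of the 3 DMSO libraries and at 0.146 to 0.174 FPKM after NAE 18:3. The tested members with the lowest mean were GH3.2 and IAA10, at 2.15 and 2.23 FPKM over the 6 libraries, and the untested ones with the highest were IAA30 and GH3.1, at 0.659 and 0.514 FPKM.

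Other genes of the pathway were counted in the same fit, in which 44.1% of all loci rose and 39.2% fell. With upper-quartile scaling 32.2% of all loci rose and 52.2% fell. Of the 6 receptor genes 4 rose, 1 fell and 1 missed the threshold, and with upper-quartile scaling 3 rose and 3 fell. TIR1 (AT3G62980) rose from 33.7 ± 1.17 to 57.6 ± 2.62 FPKM and AFB3 (AT1G12820) from 18.6 ± 1.22 to 27.9 ± 0.668 FPKM, whereas AFB1 (AT4G03190), known for rapid root responses, fell from 35.98 ± 2.08 to 17.4 ± 0.827 FPKM. Of the 5 TOPLESS co-repressor genes 4 rose and 1 fell, and with upper-quartile scaling 3 rose and 1 fell. TPL (AT1G15750) was at 32.0 ± 0.99 and 57.5 ± 0.684 FPKM and TPR2 (AT3G16830) at 13.9 ± 0.641 and 21.5 ± 0.378 FPKM, while TPR3 (AT5G27030) fell from 7.23 ± 0.388 to 5.11 ± 0.138 FPKM. Of 13 auxin synthesis genes at 14 loci, 7 loci were tested, of which 6 fell and 1 rose, with a median log2 change of -0.76. YUC10 and YUC11 were listed at 0 in all libraries, and the other 5 untested loci had group means under 1 FPKM except the second YUC5 locus, at 0.259 ± 0.239 and 1.67 ± 0.0551 FPKM. TAA1 (AT1G70560), the aminotransferase of the first step from tryptophan, fell from 25.5 ± 1.02 to 8.999 ± 0.456 FPKM, and YUC6 (AT5G25620), a flavin monooxygenase of the next step, from 3.32 ± 0.675 to 0.748 ± 0.0341 FPKM. The locus that rose was 1 of 2 loci of YUC5 (AT5G43890), from 0.656 ± 0.329 to 2.36 ± 0.511 FPKM.

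Genes of auxin conjugate hydrolysis, oxidation, methylation and glucosylation were taken as a single list, of which 9 were tested. Of these 4 rose (44.4%), 3 fell (33.3%) and 2 missed the threshold, against 44.1% and 39.2% of all loci. With upper-quartile scaling 1 rose and 4 fell. DAO2 (AT1G14120), of the dioxygenase pair that oxidises auxin, fell from 41.05 ± 0.803 to 11.2 ± 1.015 FPKM, and IAMT1 (AT5G55250), an auxin methyltransferase, from 2.095 ± 0.229 to 0.722 ± 0.118 FPKM. UGT74D1 (AT2G31750), an auxin glucosyltransferase, rose from 54.1 ± 2.34 to 82.5 ± 2.7 FPKM, and IAR3 (AT1G51760), a conjugate hydrolase, from 22.8 ± 0.482 to 28.4 ± 1.06 FPKM, although IAR3 was at -0.03 under the upper-quartile and -0.02 under the quantile scaling. Of 80 SAUR genes, early auxin targets linked to cell expansion, 53 were tested, with a median change of 0.25. Of these, 23 rose (43.4%) and 15 fell (28.3%), so the rising share was near the 44.1% of all loci. With upper-quartile scaling 17 SAUR genes rose and 20 fell. SAUR78 (AT1G72430) rose from 50.8 ± 1.75 to 147 ± 1.25 FPKM and SAUR79 (AT2G35290) from 2.70 ± 0.35 to 16.7 ± 0.966 FPKM, while SAUR37 (AT4G31320) fell from 13.9 ± 0.761 to 0.401 ± 0.139 FPKM and SAUR51 (AT1G75580) from 15.3 ± 1.13 to 2.97 ± 0.134 FPKM. Of 11 early targets of other kinds 5 were tested, of which 3 rose and 2 did not pass. With upper-quartile scaling 3 of them rose and 1 fell. In the untested GATA23 and ACS4 every NAE 18:3 library was below every DMSO library. Their means went from 0.587 to 0.0278 FPKM and from 0.247 to 0.049 FPKM. Untested LBD18 (0.614 to 1.04 FPKM) and ACS8 (0.0473 to 0.495 FPKM) were above in every NAE 18:3 library, and LBD29 and PUCHI overlapped. PBP1 (AT5G54490), a calcium-binding partner of the kinase PINOID, rose from 5.16 ± 1.86 to 52.8 ± 2.6 FPKM, and ARGOS (AT3G59900), an organ size gene, from 0.675 ± 1.05 to 26.9 ± 1.28 FPKM. Of 12 Aux/IAA, ARF and GH3 family genes outside the 43, 7 were tested. Of these 4 rose, 1 fell and 2 missed the threshold, and with upper-quartile scaling 2 rose and 2 fell. In the untested IAA31, IAA32 and IAA33 every NAE 18:3 library was below every DMSO library. Their means went from 1.06 to 0.165 FPKM, from 1.06 to 0.454 FPKM and from 1.05 to 0.0853 FPKM. Untested IAA15 and PBS3 were near 0 in both groups. JAR1 (AT2G46370), the GH3 enzyme that makes jasmonoyl-isoleucine, rose from 22.5 ± 0.575 to 43.7 ± 0.643 FPKM and ARF9 (AT4G23980) from 6.40 ± 0.314 to 10.6 ± 0.629 FPKM, while ARF11 (AT2G46530) fell from 3.95 ± 0.61 to 2.49 ± 0.257 FPKM. The rises of GH3.9 and GH3.10 were smaller, with log2 changes of 0.32 and 0.35. With upper-quartile scaling these were 0.05 and 0.01.

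**Figure D5:**
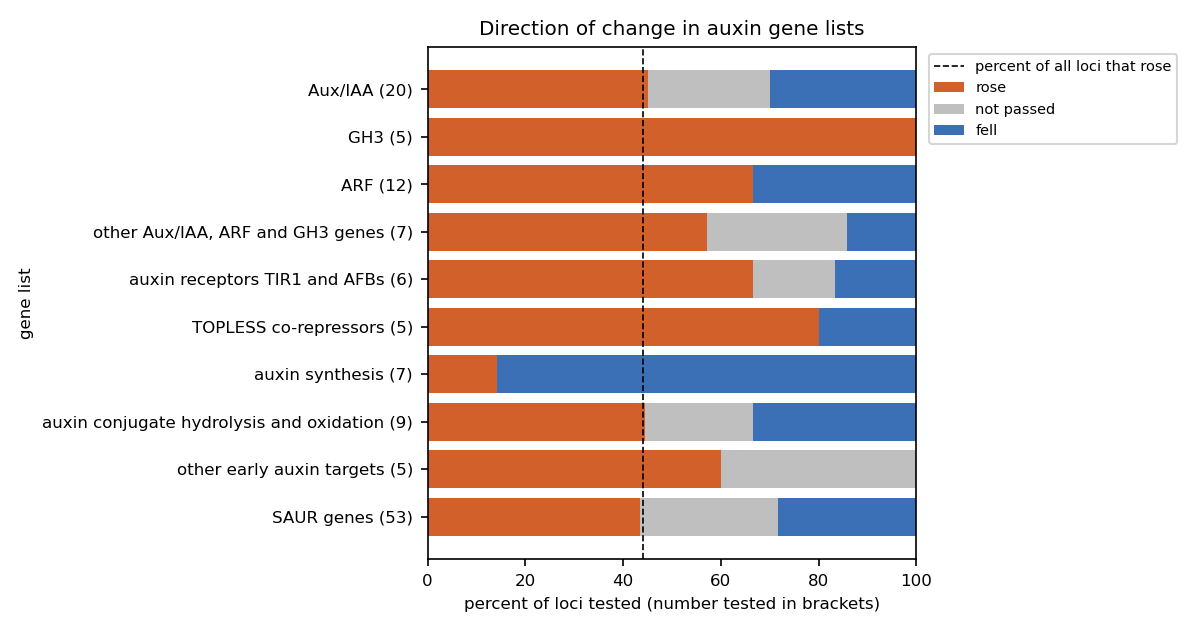
Percent of tested loci (horizontal axis) that rose, did not pass or fell in each auxin gene list (vertical axis, number tested in brackets), with a dashed line at the 44.1% of all loci that rose. All 5 GH3 genes rose, and 6 of the 7 tested auxin synthesis loci fell. The list labelled auxin conjugate hydrolysis and oxidation also holds methyltransferase and glucosyltransferase genes.

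Markers of organs moved with the same contrast, in which 44.1% of all loci rose and 39.2% fell. Of 18 root markers 13 were tested, of which 11 fell, 1 rose and 1 did not pass, and their summed level was 168 to 172 FPKM in DMSO and 98.2 to 107 FPKM after NAE 18:3. CASP1 (AT2G36100), of the endodermal barrier, fell from 34.4 ± 0.252 to 12.0 ± 1.11 FPKM and PER64 (AT5G42180) from 17.6 ± 1.77 to 5.61 ± 0.502 FPKM, while WOX5 (AT3G11260), of the root stem cell niche, rose from 5.71 ± 1.09 to 9.65 ± 1.36 FPKM. IRT1 was listed at 0 in 4 of the 6 libraries. All 10 green shoot markers rose (6 rose and 1 fell with quantile normalization), and their summed level was 39550 to 40870 FPKM in DMSO and 93720 to 99430 FPKM after NAE 18:3. RCA (AT2G39730), Rubisco activase, went from 1351 ± 7.01 to 8717 ± 240.5 FPKM and LHCB2.1 (AT2G05100) from 808 ± 4.56 to 4552 ± 138 FPKM. The part of these shifts in the changes of the Aux/IAA, GH3 and ARF genes was not tested, and in whole seedlings fewer cells of a type and less RNA per cell cannot be told apart.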

How the data were processed

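RNA-seq of 6 seedling libraries was analysed, 3 per group. The authors ran TopHat, Cufflinks and Cuffdiff with TAIR9 as the genome, per the submitters' processing notes, with versions and settings not given in the sources used here. The deposited values are FPKM per assembled transcript and per locus, named as such from those tools and from values that are not whole numbers, and 4 further columns headed as merged were not used. Of 32424 loci, the 18194 whose 6-library mean reached 1 FPKM were tested as log2(FPKM + 1) in limma 3.58.1 (R 4.3.3), using a group term alone, a mean-variance trend and Benjamini-Hochberg adjustment over all loci. "Rose" and "fell" mean an adjusted p under 0.05 in that fit. The steps of low values gave relative depth at 23.8% to 29.8% of the loci compared, too few to recover whole fragments, so no count model was used. Genes changed by at least 1 on the log2(FPKM + 1) scale are given in every library. From each other auxin list, up to 2 risers and 2 fallers with the smallest adjusted p are named, or, where fewer than 2 passed, the 2 most abundant. Some further untested or little changed genes of these lists are named as well. The genes and lists were chosen with earlier results of these data known. Promoters came from the RefSeq TAIR10.1 genome and annotation, in which all 43 genes were found. The deposited table has no coordinates, so no position was carried between builds. A planned search for protein motifs was not run. The alternatives were another pseudocount, other filters, 2 other scalings, a replicate block, a fit without the trend, joined loci left out and each library left out. P-values measure the spread between libraries that the labels call biological replicates.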

Additional observations from a re-analysis of the deposited data

How the results depend on the processing

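Of the 37 tested genes, 28 kept their direction and call under every alternative that tested them, and 9 did not. The count of Aux/IAA genes that fell was 6 and became 11 with upper-quartile scaling, a scaling that moves the median of all loci from 0.06 to -0.25. The median log2 change of all members was 0.33 with a pseudocount of 0.1, 0.27 with no filter, 0.53 with a mean of at least 5 FPKM, -0.0153 with upper-quartile scaling, 0.25 with quantile normalization and 0.27 to 0.38 with 1 library left out. That of the Aux/IAA genes was 0.23 with at least 5 FPKM, -0.17 with upper-quartile scaling, 0.0299 with quantile normalization and 0.09 to 0.19 with 1 library left out. That of the GH3 genes was 1.68, 1.29, 1.49, 1.07 and 1.36 with the pseudocount of 0.1, no filter, at least 5 FPKM, upper-quartile scaling and quantile normalization, and 1.38 to 1.43 with 1 library left out. That of the ARF genes was 0.48 with the pseudocount of 0.1, 0.53 with at least 5 FPKM, 0.11 with upper-quartile scaling, 0.32 with quantile normalization, 0.30 without joined loci and 0.40 to 0.45 with 1 library left out.

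Signs turned with upper-quartile scaling for IAA3 (-0.0265), IAA8 (-0.12), IAA9 (-0.33), IAA13 (-0.19), IAA14 (-0.16), ARF10 (-0.0153) and ARF16 (-0.0603), and with quantile normalization for IAA8 (-0.10), IAA9 (-0.31), IAA13 (-0.0337) and IAA19 (0.0936). With 1 library left out IAA9 ranged from -0.0073 (without NAE 18:3 replicate 3) to 0.0572, and IAA19 from -0.1051 to 0.0637 (without DMSO replicate 3). The calls of IAA3 and ARF16 were also lost in 1 and 2 of the fits without 1 library, that of IAA3 also with quantile normalization (0.14). IAA12, IAA13 and IAA14 gained a call in 1 fit without 1 library each. With upper-quartile scaling IAA9, IAA12 (-0.46), IAA13 and IAA19 (-0.33) were called lower, as was IAA8. With quantile normalization IAA8, IAA9 and IAA12 (-0.34) were called lower. With no filter IAA6 and IAA29 were called higher as well. Same-numbered libraries of the groups did not deviate together (correlations of -0.01, -0.01 and 0.02 over loci), which does not show whether they were handled as pairs. With a replicate block 22 members rose and 10 fell, as without it.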
